A study of Arabidopsis thaliana with 12 samples.

Results

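The transcripts described here are those whose array signal was far higher in dark-grown than in red-light-grown Arabidopsis thaliana seedlings, in the wild type and in the atbzip16 mutant alike. A probe set is a group of short probes read together as 1 signal. It was a member when its mean log2 signal over 12 arrays was at least 5.38 (a signal of 41.6). Its mean log2 red-light value also had to lie at least 2.5 below its mean log2 dark value in each genotype. These limits were met by 125 probe sets, and 16 of them were left out by name, which gave 109 members of 22746 probe sets on the array without controls. Of the 109, 48 matched 1 gene, 1 matched several genes and 60 carried no gene name in the annotation used. The red-light and dark values chose the members, so their light responses are given as a description, with no test. All 109 passed the low-signal limit because that limit was part of the choice. The dark arrays raised the mean of every member, and 58 had a red-light mean under the limit in at least 1 genotype.

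The study asked how the transcription factor bZIP16 takes part in light and hormone responses of young seedlings. The RNA came from the aerial parts of 4-day-old seedlings on agar plates. The labels name it total RNA, but their extraction protocol goes on to describe polysome RNA, so the signals are taken here as total RNA with that doubt. The groups were the wild type Landsberg erecta (Ler) kept in the dark (etiolated), atbzip16, a mutant in the Ler background, kept in the dark, Ler in long days of red light (0.5 µmol m-2 s-1), and atbzip16 under that same red light. Each of the 4 groups had 3 biological replicates and each replicate had 1 array. The labels do not name the mutation in atbzip16, none of the probe sets is named for bZIP16, and the level of the targeted gene was therefore not analysed here.

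Seeds of Arabidopsis fill with storage proteins and oil late in their development and then dry. During that phase the embryo accumulates cupin-type storage globulins, oleosins that coat oil bodies, late embryogenesis abundant proteins that protect cells against water loss, and enzymes that detoxify reactive oxygen. Their transcripts are stored in the dry seed and normally decline with germination. Many of the named members below belong to these families. Their roles are textbook knowledge, and the grouping by role was made after the values were seen.

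Replicate number 1 stood apart among the members. In the dark, 76 of the 109 members had their highest signal of the 3 replicates on replicate 1 in both genotypes, as did 25.6% of all 15913 probe sets tested, and 21 had their lowest signal there in both genotypes (28.1% of all). The members' median deviation from the group mean on replicate 1 was 0.51 in dark Ler, 0.37 in dark atbzip16, 0.41 in red-light Ler and 0.18 in red-light atbzip16, on the log2 scale. Genotype differences are therefore given below from the model with a mean per group (limma) and also, where it changes the call, from the model that adds the replicate number as a block. Counts of calls that rest on the block are followed by the counts without the 4 arrays of replicate 1, 2 and 3. The shares of all probe sets called under these omissions are given with the counts over all 109 members. In each genotype comparison that share was largest without replicate 1.

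Together the members took 1.20% to 1.92% of the summed signal of the 3 dark Ler arrays and 2.62% to 3.49% of that of the 3 dark atbzip16 arrays. On the 6 red-light arrays their share was 0.0477% to 0.0799%. The shares in dark Ler, dark atbzip16 and red light did not overlap. Mean dark signal (geometric mean of 3 arrays) exceeded 1000 in both genotypes for 41 of the 109 members, and 253767_at, a probe set with no gene name here, was at 34374 in dark Ler and 44291 in dark atbzip16. These are whole aerial parts, in which fewer cells with a transcript and less of it per cell cannot be told apart.

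**Figure D1:**
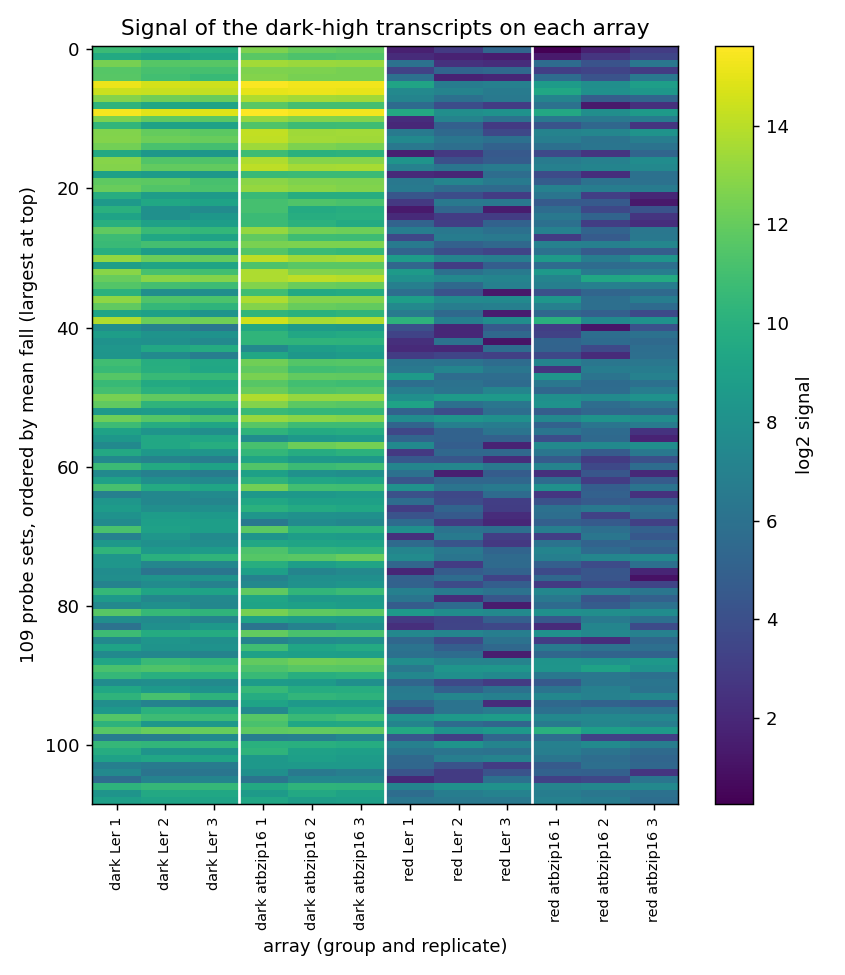
Log2 signal of the 109 members (rows, ordered by the mean of both light responses, the largest at the top) on each of the 12 arrays (columns, grouped by light and genotype, white lines between groups). Within most rows the dark columns are brighter than the red-light columns, and the 3 dark atbzip16 columns are brighter than the 3 dark Ler columns. Rows differ in level on the shared colour scale.

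The median log2 red-light minus dark value of the members was -3.83 in Ler (range -8.34 to -2.50) and -5.09 in atbzip16 (range -10.56 to -2.51). For 84 members the light response was larger in atbzip16 and for 25 it was larger in Ler. In both genotypes 107 of the 109 members had all 3 dark arrays above all 3 red-light arrays, against 15.6% of all probe sets in Ler and 16.8% in atbzip16. The exceptions were 253894_at and AT2G42990, a GDSL-type esterase, in Ler, and 250207_at and AT2G42990 in atbzip16. The choice of members fixes these counts, and nothing is read from them.

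The size of the largest responses depends on weak red-light signals. The mean red-light signal was under 41.6 for 56 members in Ler, for 45 in atbzip16 and for 43 in both. With 16 added to every signal before the logarithm, the medians were -3.26 in Ler and -4.36 in atbzip16, and 84 of the 109 members still met the limits in both genotypes. Just inside the limits were AT2G19320 (-2.50 in Ler), AT4G36010 (-2.51 in atbzip16) and 264147_at (-2.54 in Ler). Just outside were AT1G68250 (-2.495 in atbzip16), 260248_at (-2.49 in Ler) and 263894_at (-2.49 in atbzip16).

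**Figure D2:**
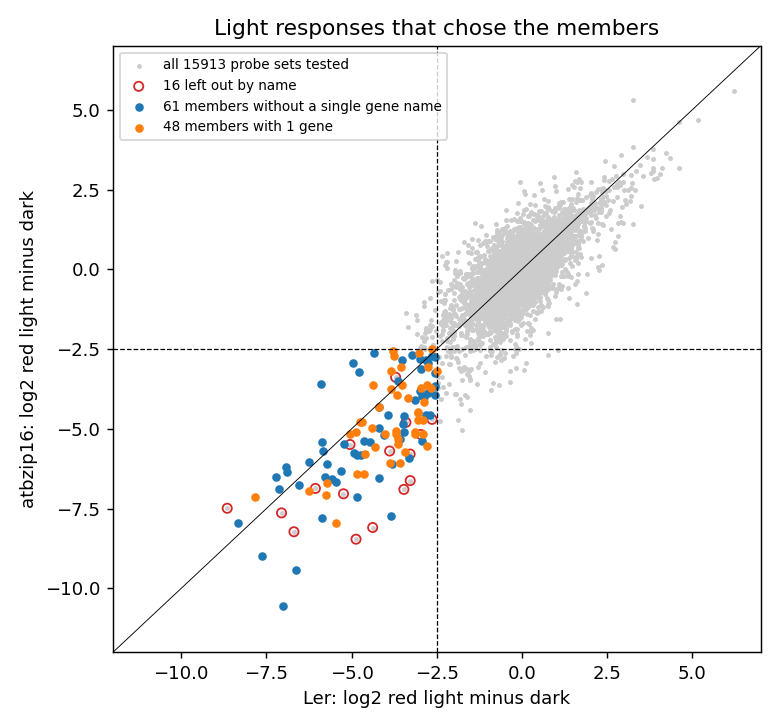
Log2 red light minus dark in Ler (x axis) and in atbzip16 (y axis) for all 15913 probe sets tested, with the members, the 16 left out by name and the limit of -2.5 (dashed lines). The members fill the lower left corner because the rule placed them there, and 84 of the 109 lie below the diagonal, where the response was larger in atbzip16.

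Among the named members, 10 encode proteins of desiccation tolerance, most of them late embryogenesis abundant (LEA) proteins. LEA, a dehydrin, which is a water-binding LEA protein, had signals of 3782, 1642 and 1398 in dark Ler and 9179.5, 5208 and 4754 in dark atbzip16. In red light its signals were 108, 85.4 and 60.7 in Ler and 131, 35 and 79.9 in atbzip16. All dark atbzip16 arrays stood above all dark Ler arrays, while the red-light groups overlapped. The log2 genotype difference in the dark was 1.57 with an SE of 0.47 (3 arrays in each group, limma adjusted p = 0.426), and with the replicate block it was called (SE 0.26, limma adjusted p = 0.00518), though not without replicate 3 of dark Ler.

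AT1G04560, an AWPM-19-like membrane protein of the kind found in plasma membranes of drying embryos, read 5575, 3709 and 3464 in dark Ler and 13851, 9339 and 9378 in dark atbzip16. It read 236, 398 and 388 in red-light Ler and 244, 199 and 278 in red-light atbzip16. Its dark groups did not overlap and its red-light groups did. The dark difference was 1.36 ± 0.25 (SE, limma adjusted p = 0.078, and 0.006 with the block, a call that ended without replicate 3 of dark Ler). AT2G21820, a seed maturation protein, read 4867, 3007 and 2313 in dark Ler and 9674, 7460.5 and 6914 in dark atbzip16, again without overlap, with a dark difference of 1.29 ± 0.27 (limma adjusted p = 0.131, and 0.0113 with the block, a call that ended when any 1 of 4 arrays was left out).

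AT3G53040, a LEA protein, showed the offset of replicate 1, with 3799, 1219 and 1143 in dark Ler and 7038, 3370.5 and 3134 in dark atbzip16. Replicate 1 of dark Ler lay above 2 of the atbzip16 arrays, so the groups overlapped, although atbzip16 was higher in each of the 3 numbered pairs. Its dark difference was 1.27 ± 0.80 (limma adjusted p = 0.908, and 0.0365 with the block, ended by leaving out any 1 of 5 arrays). Its red-light signals were 564, 61.6 and 77 in Ler and 268, 54.3 and 82.5 in atbzip16, where replicate 1 was again the high array of both groups. AT2G23110, another LEA protein, was called with the block too (0.96 in the dark, limma adjusted p = 0.0264), again not when any 1 of 5 arrays was left out.

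The other members of the group, the LEA proteins AT5G66780, AT4G21020, AT2G42560, AT1G72100 and AT1G22600, had dark differences of 1.03 to 1.46 and were not called. Over all 10 the dark genotype difference ranged from 0.96 to 1.57 with a median of 1.28, beside a median of -0.02 over all probe sets. None was called by limma without the block and 5 were called higher with it (1.26% of all probe sets). That count was 6, 1 and 0 without replicate 1, 2 and 3, and 0 to 6 with single arrays left out. In red light the same 10 ranged from -1.53 to 0.94 with a median of -0.29, and none was called under either model. AT4G21020 had the widest gap between light responses among these 10, with -2.79 in Ler and -5.55 in atbzip16.

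Storage reserves were represented by 6 named members. AT1G03890, a cupin of the cruciferin type, the main storage globulin family of the Arabidopsis seed, read 275, 246 and 183 in dark Ler and 1255, 1234 and 1180.4 in dark atbzip16. In red light it read 5.1, 65.4 and 2.1 in Ler, where replicate 2 was above the low-signal limit and the other two far below it, and 37.7, 49.3 and 46.5 in atbzip16. The dark groups were far apart and the red-light groups overlapped. The dark difference was 2.40 ± 0.87 and was not called (limma adjusted p = 0.621, and 0.129 with the block), and the difference averaged over both light conditions was 2.36 ± 0.62 (limma adjusted p = 0.223, and 0.03 with the block, ended by leaving out any 1 of 7 arrays).

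AT5G45690 and AT1G29680 belong to a protein family of unnamed function (DUF1264) whose maize relatives sit on oil bodies. AT5G45690 read 3172, 1998 and 1534 in dark Ler, 6980.0, 5582 and 5549.7 in dark atbzip16, 64.7, 3.3 and 3.8 in red-light Ler and 51.3, 18.2 and 83.6 in red-light atbzip16. Among named members its mean light response over both genotypes was the largest (-7.84 in Ler and -7.13 in atbzip16), but replicate 1 of red-light Ler was more than 10 times the other 2 arrays of its group. AT1G29680 read 406, 234 and 244 in dark Ler and 1085, 817 and 690.1 in dark atbzip16. It read 8.3, 36.8 and 8.4 in red-light Ler and 63.9, 83.4 and 59.6 in red-light atbzip16, and in neither light condition did the genotypes overlap. It was the only named member called by limma without the block, for the difference averaged over both light conditions (1.95 ± 0.34, SE, limma adjusted p = 0.0462).

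The cupin AT4G36700, the oleosin-family protein AT3G18570 and AT2G47780, a lipid droplet protein related to rubber elongation factor, completed the reserves. AT2G47780 read 2355, 2694 and 2138 in dark Ler and 2613, 3261 and 3132 in dark atbzip16, where the groups overlapped, and its dark difference of 0.33 was the smallest of the 6. All 6 values were above 0 in the dark (median 1.53) and in red light (median 1.71), which the desiccation group's red-light values were not. The median of the mean red-light signals in Ler was 18.4 for the reserves, under the low-signal limit, and 103.8 for the desiccation group. In red-light atbzip16 these medians were 49.7 and 61.4. Weak Ler signals of the reserves therefore limit the red-light contrast between these groups. None of the 6 was called in the dark under either model, though 3 were with the block when replicate 1 was left out. The share called over all probe sets rose under that omission too. In red light 1 was called higher with the block (AT1G29680, 2.32, limma adjusted p = 0.0283, beside 0.214% of all probe sets). Without replicate 1, 2 and 3 the red-light count was 2, 0 and 0, and the difference between the groups of members was not tested.

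Enzymes made up 10 named members. AT3G56350, a manganese superoxide dismutase of the seed, which removes superoxide, read 7621, 2224 and 2007 in dark Ler and 13559, 6978 and 6752 in dark atbzip16. Its red-light signals were 398, 61.2 and 96.9 in Ler and 382, 90.6 and 111 in atbzip16, and replicate 1 was the high array in all 4 groups. The dark groups overlapped because of it, while each numbered pair had atbzip16 higher, and the dark difference was 1.41 (SE 0.71, limma adjusted p = 0.846; SE 0.23, adjusted p = 0.00478 with the block). No single array ended that call, but leaving out replicate 2 or 3 did.

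AT1G54870 and AT3G05260, short-chain dehydrogenases, and AT5G01670, an aldo-keto reductase, belong to families that reduce reactive aldehydes and ketones. AT1G54870 read 6918, 4813 and 4313 in dark Ler and 18253, 11391 and 11165 in dark atbzip16, without overlap, and 188, 79.3 and 62 and 112, 72.6 and 115 in red-light Ler and atbzip16, with overlap. The dark difference was 1.34 ± 0.36 (limma adjusted p = 0.33, and 0.00459 with the block, a call that no single array removed but that ended without the 4 arrays of replicate 2). AT3G05260 read 5180.0, 2399 and 2075 in dark Ler and 10692, 6083 and 5482 in dark atbzip16 (1.26, limma adjusted p = 0.0154 with the block, ended by leaving out any 1 of 5 arrays), and AT5G01670 read 3108, 1511 and 1243 and 5680.3, 3556 and 3340.2 (1.18, limma adjusted p = 0.00212 with the block, ended without replicate 2 or 3 but by no single array). In both, the dark genotypes did not overlap.

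AT3G54940, a papain-type cysteine protease, read 8310.2, 2672 and 2421 in dark Ler and 13503, 6832 and 6908 in dark atbzip16 (1.19, limma adjusted p = 0.0118 with the block, ended by leaving out any 1 of 4 arrays). In red light it was lower in atbzip16 (326, 58.3 and 111) than in Ler (468, 198 and 186) in each numbered pair, a difference of -1.01 that was not called (limma adjusted p = 0.0596 with the block). BGLU19, a beta-glucosidase, ran against the common order of replicates, with replicate 1 the lowest in both dark groups (323, 1047 and 1249 in Ler and 2973, 3344 and 4169.9 in atbzip16). Its dark difference of 2.21 ± 0.52 was called with the block only (limma adjusted p = 0.0333), and not when any 1 of 6 arrays was left out. The jacalin-type lectin AT3G21380, on the same gene list but not a member, had a dark difference of 2.30 (limma adjusted p = 0.0673, and 0.00538 with the block, a call that 1 single array ended). Its difference averaged over both light conditions was 1.88 and was called without the block (limma adjusted p = 0.0178).

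The 4 remaining enzymes, the SABATH-type methyltransferase AT5G38780, the caffeoyl-CoA O-methyltransferase-like AT1G24735, the GH3 protein AT1G48660 and the esterase AT2G42990, had dark differences of 0.29 to 1.46 and were not called. AT2G42990 was the weakest of them, with dark signals of 51.5, 136 and 148 in Ler and 71.8, 168 and 157 in atbzip16 and a replicate 3 in red light of 61.3 and 74.7, above replicate 1 of dark Ler. Over the 10 enzymes the median dark difference was 1.24 and 6 were called higher with the block (1.26% of all probe sets). That count was 6, 0 and 1 without replicate 1, 2 and 3, and 3 to 6 with single arrays left out. The median in red light was 0.27 with no call.

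Secreted and wall proteins, together with the major latex protein-like AT1G14940, numbered 6. LCR67, a plant defensin, which is a small cysteine-rich antimicrobial protein, had the highest mean signal of the named members in the dark, with 4257, 7649 and 7001 in Ler and 13396, 17587 and 16001 in atbzip16. Replicate 1 was the lowest array of both dark groups and, at 148, 683 and 806 in red-light atbzip16, also of that group, while in red-light Ler (254, 176 and 146) it was the highest. The dark groups did not overlap, and the difference of 1.35 ± 0.50 was not called (limma adjusted p = 0.637, and 0.126 with the block). The difference averaged over both light conditions was 1.28 and was called with the block only (limma adjusted p = 0.0342). That call ended when any 1 of 10 arrays was left out.

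AT1G14940, a major latex protein-like gene, lies between AT1G14930 and AT1G14950 on the chromosome, with no protein-coding gene between them, and both of those met the limits but were left out by name. It read 1124, 234 and 225 in dark Ler and 1914, 767 and 829 in dark atbzip16, and replicate 1 of each was more than double its next array. The thaumatin-like AT4G36010 was steady instead, with 489, 578 and 568 in dark Ler and 643, 440.2 and 483 in dark atbzip16, overlapping, and 83, 89.8 and 88.7 and 128, 103 and 56.3 in red light. Its genotype difference was -0.08 ± 0.27 in the dark and 0.06 in red light. The proline-rich AT5G43770, the hydroxyproline-rich AT5G55750 and the glycine-rich AT5G35660 had dark differences of 0.92 to 1.78, and none of the 6 was called in the dark under either model.

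Regulatory proteins numbered 4, and they did not share 1 pattern. AT3G58450, related to universal stress proteins, read 2240.5, 814 and 627 in dark Ler and 5227, 1999.9 and 1956 in dark atbzip16 (1.39, limma adjusted p = 0.0151 with the block, ended by leaving out any 1 of 4 arrays). AT5G18450, an ERF/DREB transcription factor of the drought-response family, had a dark difference of 1.39 that was not called (limma adjusted p = 0.056 with the block). AT1G77200, of the same factor family, read 107, 109 and 189 in dark Ler and 114, 126 and 172 in dark atbzip16, a difference of 0.05. The EF-hand calcium-binding protein AT2G34020 read 350.4, 1066 and 861 in dark Ler and 171, 737 and 709.6 in dark atbzip16, lower in atbzip16 in each numbered pair but overlapping as groups (-0.61 ± 0.67, limma adjusted p = 0.991, and 0.437 with the block).

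The 12 other named members encode membrane proteins or proteins of unknown function. AT1G54860, a GPI-anchored glycoprotein, is the next protein-coding gene to AT1G54870 on the chromosome, and both are members. AT1G54860 read 1215, 690.3 and 567 in dark Ler and 3231, 2128 and 2066 in dark atbzip16, without overlap. In red light it read 49.3, 14.6 and 7.8 in Ler and 66.1, 2.6 and 5.3 in atbzip16, of which only the replicate 1 arrays were above the low-signal limit. Its dark difference of 1.63 ± 0.95 was not called (limma adjusted p = 0.897, and 0.208 with the block), while its neighbour's similar value was called with the block.

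In the same group AT1G27990, a transmembrane protein (1.30 in the dark, limma adjusted p = 0.00505 with the block, not called without replicate 3 of dark Ler), and AT1G02700 (1.46, limma adjusted p = 0.00755 with the block, not called when either of 2 arrays was left out) were called. These 2 of 12 (1.26% of all probe sets) became 5, 0 and 0 without replicate 1, 2 and 3. The share over all probe sets also rose without replicate 1. AT1G27461 read 1327, 563 and 539 in dark Ler and 2693, 1798 and 1830.5 in dark atbzip16 (1.49, not called). AT1G70270, of unknown function, was the only 1 of the 12 with a dark value below 0, at -0.43. The others were AT1G16850 with 0.88, AT1G65090, AT4G27530, AT1G16770, AT1G23070, AT2G33520 and AT2G19320, whose dark difference of 1.81 was the largest of the 12 and was not called. Averaged over both light conditions, AT4G27530 (1.27, limma adjusted p = 0.0298) and AT1G16770 (1.66, limma adjusted p = 0.0342) were called with the block (2.08% of all probe sets). Each of these calls ended when any 1 of 8 arrays was left out.

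**Figure D3:**
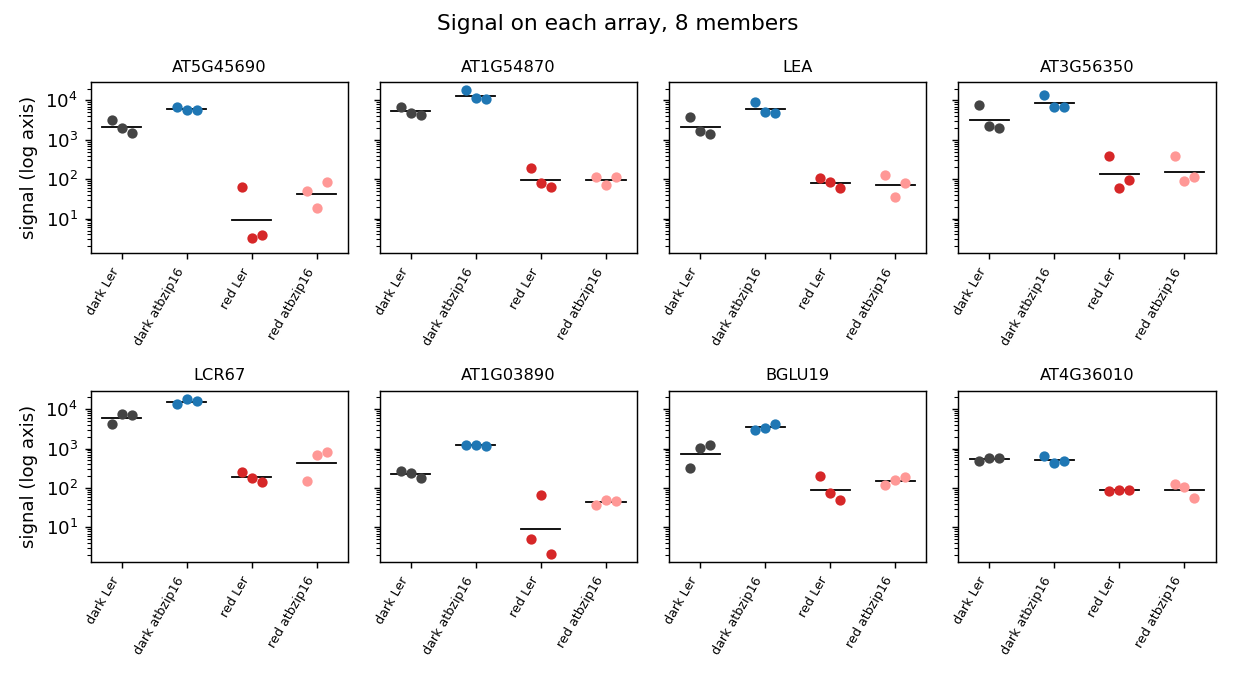
Signal on each array (points, log axis, horizontal lines at the geometric mean of 3 arrays) for 8 named members in the 4 groups. Dark atbzip16 lies above dark Ler without overlap in AT5G45690, AT1G54870, LEA, LCR67, AT1G03890 and BGLU19, the groups overlap in AT3G56350, and AT4G36010 is level between genotypes.

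The genotype comparison over all 109 members asks whether the dark-high transcripts differed between atbzip16 and Ler. The rule set the same limit in both genotypes and did not use this comparison, though it used the same arrays. In the dark, 95 members were higher in atbzip16 (46.6% of all probe sets) with a median difference of 1.30, beside -0.02 over all probe sets, and 77 differed by at least 1 on the log2 scale (1.73%). All 3 dark atbzip16 arrays lay above all 3 dark Ler arrays for 67 members (5.86%) and below them for 2 (6.4%), 260957_at and 253103_at. In the numbered pairs 99, 92 and 93 members were higher in atbzip16, and 91 were higher in all 3 (17.6%). The members' median was 1.06 in pair 1, 1.28 in pair 2 and 1.47 in pair 3. These values were already known when the members were chosen.

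Few single members passed the test. By limma 1 member, 245161_at, was called in the dark (0.0628% of all probe sets), and 47 had an unadjusted p under 0.05 (6.3%). The signals of 245161_at were 659, 1614 and 1319 in dark Ler and 3886, 5046 and 4550.2 in dark atbzip16, a difference of 2.00 ± 0.29 (limma adjusted p = 0.0292), and the call ended when any 1 of 6 arrays was left out (adjusted p up to 0.19). With the replicate block 30 members were called, each higher in atbzip16 (1.26%), 14 of them named. Without the 4 arrays of replicate 1 the block model called 53 (4.43% of all probe sets in either direction), without replicate 2 it called 11 (0.176%) and without replicate 3 it called 9 (0.226%). Leaving out a single array kept the block call of 13 of the 30 under each of the 12 omissions, AT5G01670, AT3G56350 and AT1G54870 among the named ones. It ended the call of the other 17 under at least 1 omission, 11 of them named. The calls of 5 of the 30, none of them named, were kept without any one of the replicate numbers. With single arrays left out the block count was 16 (without replicate 3 of dark Ler) to 41 (without replicate 1 of red-light Ler).

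The members called with the block were mostly those with red-light means at or over 41.6 in both genotypes. That value is the rule's limit on the mean over all arrays and not a limit of detection. Of the 51 members whose red-light means were at or over 41.6 in both genotypes, 26 were called in the dark with the block, with a median difference of 1.23. Of the other 58, 4 were called, although their median was 1.42. Over all probe sets 1.26% were called higher. The count of the first class was 36, 8 and 7 without replicate 1, 2 and 3, and that of the other was 17, 3 and 2. The shares of all probe sets under these omissions are those given above. The model shares 1 estimate of the spread between the light conditions.

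Probe sets without a gene name included the members with the lowest adjusted p. The sets 249937_at (1.74), 263175_at (1.33), 247866_at (1.36) and 265255_at (1.84) each had a limma adjusted p of 0.000638 in the dark with the block. The largest dark value among called members was that of 253930_at, which read 472, 609.6 and 592 in dark Ler and 2560.0, 3282 and 3288 in dark atbzip16 (2.45 ± 0.43, limma adjusted p = 0.0673, and 0.0043 with the block). The largest of the 109 was 253894_at, with 186, 708 and 892 in dark Ler and 2252, 4582 and 5495 in dark atbzip16, a difference of 2.97 that was not called (limma adjusted p = 0.177 with the block).

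**Figure D4:**
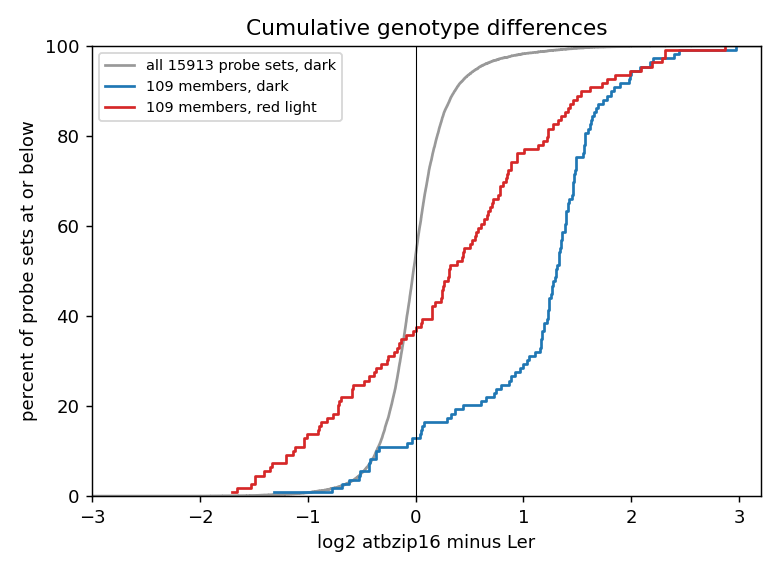
Cumulative percent of probe sets (y axis) at or below each log2 atbzip16 minus Ler difference (x axis), for all 15913 probe sets tested in the dark and for the 109 members in the dark and in red light. The members' dark curve is shifted to a median of 1.30, their red-light curve to 0.31, and the curve of all probe sets crosses the middle at -0.02.

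In red light the values were smaller and of both signs. The median difference was 0.31, beside 0.01 over all probe sets, 69 members were higher in atbzip16 (52.7%) and all 3 atbzip16 arrays lay above all 3 Ler arrays for 8 (5.34%) and below them for 3 (4.62%). Limma called 0 members (0.0377% of all probe sets), with 24 at an unadjusted p under 0.05 (5.13%), and with the block 8 were called (0.547%). Of these, 6 were higher in atbzip16 (248125_at, 263175_at, AT1G29680, 254095_at, 265095_at and 265255_at), and 264147_at and 247437_at were lower. Without replicate 1 the block model called 35 (3.28%), and without replicate 2 or replicate 3 it called 0 (0.00628% and 0.044%). Each of the 8 calls ended with at least 1 single array left out.

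Sets 264147_at and 247437_at differed from one another in the dark. 264147_at read 1407, 997 and 991 in dark Ler and 1557, 962 and 1058 in dark atbzip16, an overlap, and 162, 239 and 184 in red-light Ler against 84, 82.9 and 62.1 in red-light atbzip16, where all atbzip16 arrays were lower (-1.35 ± 0.23, limma adjusted p = 0.0899, and 0.00792 with the block). 247437_at was higher in dark atbzip16 (1.39, limma adjusted p = 0.000996 with the block) and lower in red-light atbzip16 (-0.90, limma adjusted p = 0.0329 with the block). Over the 109 members, 61 were higher in atbzip16 in both light conditions, 34 were higher in the dark and lower in red light, 8 were the reverse and 6 were lower in both.

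**Figure D5:**
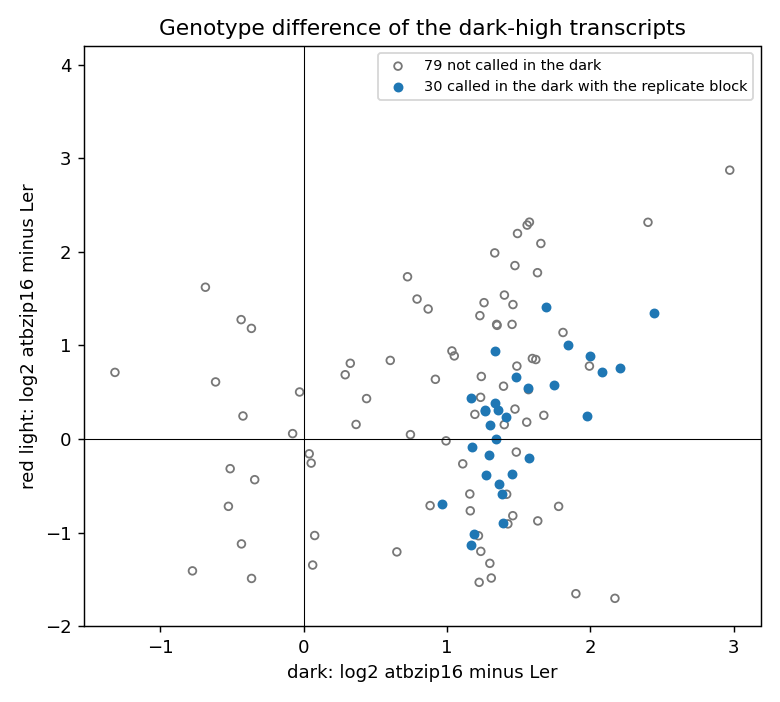
Log2 atbzip16 minus Ler in the dark (x axis) and in red light (y axis) for each of the 109 members, with the 30 called in the dark by the model with the replicate block filled. The points lie mostly right of 0 on the x axis (95 of 109) and spread on both sides of 0 on the y axis (69 above).

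Averaged over both light conditions, a difference from the same arrays but orthogonal to both light responses that chose the members, the median was 0.72 and 91 members were higher in atbzip16 (49.5% of all probe sets). Limma called 6, each higher (0.126%), of which 5 had no gene name (254095_at, 245161_at, 253930_at, 263175_at and 248520_at) and the other was AT1G29680. Set 254095_at read 1654, 2056 and 1990.2 in dark Ler, 5812, 6256 and 6238 in dark atbzip16, 95.5, 32.5 and 43.2 in red-light Ler and 129.6, 122 and 161 in red-light atbzip16, with an averaged difference of 1.55 ± 0.21 (limma adjusted p = 0.00861). In both light conditions all its atbzip16 arrays were above all its Ler arrays. With the block 30 members were called (2.08%), of which 29 were higher and 264147_at was lower. That count was 48 without replicate 1, 13 without replicate 2 and 8 without replicate 3 (6.27%, 0.251% and 0.251% of all probe sets). Of the 6 limma calls, that of 254095_at held under each of the 12 omissions of 1 array. Each of the other 5 ended under at least 1, that of AT1G29680 under 9, and the count was 1 (without replicate 2 of dark atbzip16) to 17 (without replicate 1 of red-light Ler).

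A minority of 14 members was lower in dark atbzip16, none of them called in the dark under either model. The named ones were AT1G70270, AT2G34020 and AT4G36010. The most negative value was that of 257689_at (198, 483 and 470.3 in dark Ler and 84.5, 205 and 168 in dark atbzip16, -1.32 ± 0.82, limma adjusted p = 0.906). The 2 sets whose dark groups did not overlap read 1440.0, 1305 and 1366 against 1020.4, 984 and 880.4 for 260957_at and 539, 653 and 609 against 348, 494 and 418 for 253103_at. Of the 21 members with their lowest dark signal on replicate 1 in both genotypes, 11 were higher in dark atbzip16, with a median difference of 0.04. Of the 76 with their highest signal there, 75 were higher, with a median of 1.34. Both classes were formed from the same arrays, so no test compares them.

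The gene lists drawn up from known families give the context of the named members. Members, and genes that met the limits but were left out by name, have light responses fixed by choice. Light calls are therefore counted here only for the other genes of each list, all of which missed a limit in at least 1 genotype. Of 34 LEA genes 24 were named on the array and 18 tested, of which 6 are members and 5 were left out by name. Limma called 1 of the remaining 7 lower in red-light Ler (5.79% of all probe sets) and 5 lower in red-light atbzip16 (6.88%), with medians of -0.76 and -2.85, and with the block it called 3 (12.6%) and 5 (13.4%). LTI30, a cold-induced dehydrin, had a light response of 0.84 in Ler and -0.14 in atbzip16, and AT2G03850 had 0.05 and 0.28, both among the 7. The dark genotype difference of the 18 had a median of 1.21, and 8 were called higher with the block (1.26%), a count of 9, 2 and 3 without replicate 1, 2 and 3. Of these 8, 3 were neither members nor left out (LEA18, AtLEA4-1 and AT1G47980).

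Of 14 storage protein genes 5 were tested, 2 of them members and 2 left out, and the fifth, AT2G18540, was not called in either light response (-0.69 in Ler and -0.98 in atbzip16). Of 7 seed membrane and redox genes 3 were tested, 2 of them members, and the other, AT5G01300, was called lower in red light in each genotype (-2.41 and -4.74). Of 12 oil-body genes 3 were tested, and 2 of them met the limits and were left out by name. The other, AT2G25890, is also a name that the rule leaves out, but it missed the limit in Ler. It had -1.83 in Ler, called with the block only, and -4.07 in atbzip16, called by limma. Of 12 ER-body and glucosidase genes 6 were tested, BGLU19 being the 1 member. Of the other 5, AT3G21380 was called lower in red light in each genotype (-1.56 and -2.41), and the remaining 4 were not called under either model.

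Lists of other dark-related functions held no member. Of the enzymes that break down seed oil, 3 of 16 were tested and limma called 0 in either light response (5.79% and 6.88% of all probe sets lower, 5.65% and 7.09% higher, in Ler and atbzip16). With the block ICL, isocitrate lyase of the glyoxylate cycle, was called lower in red light (-0.42 in Ler and -0.66 in atbzip16) and SDP1, a lipase that starts the breakdown of seed oil, was called higher (0.50 and 0.41). The ICL call ended in Ler when any 1 of 4 arrays was left out, and in atbzip16 with none. The SDP1 calls ended when any 1 of 3 arrays (Ler) or 5 arrays (atbzip16) was left out. Of 19 etiolation and PIF target genes 4 were tested, with 1 called lower in red light in each genotype by limma, 3 in Ler and 2 in atbzip16 with the block (12.6% and 13.4% of all probe sets), and medians of -0.65 in Ler and -0.37 in atbzip16. Of 14 genes induced by sugar starvation 3 were tested, and limma called 2 higher in red light in each genotype, opposite in direction to the members. With the block it called 3 in Ler and 2 in atbzip16 (11.0% and 13.1%).

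Markers of other tissues give the remaining measured context. The seed maturation markers had 3 named probe sets of 23 genes, PAP85, AT3G15670 and OLEO3, all among those left out by name, so that the limits fixed their light responses. Their summed signal was 15389 to 28297 in dark Ler, 34858 to 43950 in dark atbzip16 and 484.4 to 931.9 in red light, and most of the dark sum was PAP85, a vicilin-type storage protein. The markers differed from one another by genotype. Mean dark signals in Ler and atbzip16 were 13734 and 29204 for PAP85 (a log2 difference of 1.09), 2915 and 6659 for the LEA protein AT3G15670 (1.19), and 2289 and 1779.6 for the oleosin OLEO3 (-0.36). None was called by limma, and PAP85 was called with the block (limma adjusted p = 0.0153). That call ended when any 1 of 5 arrays was left out. The count called higher with the block among the 3 markers was 1, 0 and 0 without replicate 1, 2 and 3. Their part in the members' differences was not tested. Of 4 seed coat or endosperm markers 1 had a named probe set, with a signal of 2.5 to 43.7 over all arrays. Of 14 root markers 3 were named on the array, and neither of the 2 tested was called. Of 12 green-tissue markers 0 had a named probe set, and 7 photosystem probe sets, taken in their place after the data were seen, summed to 24393 to 32990 in the dark and 66183 to 112013 in red light.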

How the data were processed

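Transcript levels were measured on 12 Affymetrix-type arrays. The values the authors deposited are intensity on a linear scale, 1 per probe set, made with MAS5 per the submitters' processing notes. No software version or setting is given in the sources used here. Arrays hold no counts, so the 3 arrays per group limit the precision. Sample titles gave the groups. For 6 samples the description field contradicts the title on light, and the title was followed.

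Log2 values were computed with no pseudocount. Omitting 64 control probe sets and those with a mean log2 under 5.38 left 15913. Group means were modelled with limma 3.58.1 in R 4.3.3 (eBayes with a variance trend), tested on simulated data first. P-values were adjusted by Benjamini-Hochberg within a contrast, and probe sets under an adjusted p of 0.05 were called. The sign ± precedes a standard error of that model.

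The labels call the replicates biological and name no batch. Residuals of arrays with the same number correlated between 0.164 and 0.506 (18 pairs), those with different numbers between -0.387 and 0.25 (36 pairs). Residuals cancel out within each group, so positive correlations for the same number push those for different numbers down. The ranges are therefore not independent and were not tested against each other. Values with the number as a block are given where a call changes.

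Members and lists were chosen with earlier results of these data known. Values are given for the 12 named members with the largest mean light response, those called for genotype (up to 10 per contrast), the 3 with the largest and the 3 with the smallest difference between light responses, the 3 just inside and the 3 just outside the limits and up to 4 per list, and members that complete a role were added. Names came from the platform annotation, updated through the TAIR10.1 gene table (13436 of 13513 probe sets with 1 gene found). Alternatives were a pseudocount of 16, quantile normalization, median centring, other low-signal limits (none, or a mean log2 of 7), rule limits of -2 and -3, no variance trend, the block and leaving out arrays.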

Additional observations from a re-analysis of the deposited data

Results flagged for a closer look

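Genotype differences pointed in opposite directions in the dark and in red light, in each of the 3 replicate pairs, for 15 of the 109 members (13.8%) and for 4.75% of all probe sets tested. In the dark 91 members were higher in atbzip16 in all 3 pairs (17.6% of all probe sets). The larger share of opposite pairs among members cannot be told apart from this dark difference. The difference between the light conditions was not tested for members, because it is made of the values that chose them. Log2 atbzip16 minus Ler was above 0 in the dark and below 0 in red light for 14 of the 15. Among these were the protease AT3G54940 (1.19 in the dark and -1.01 in red light), the hydroxyproline-rich AT5G55750 (1.78 and -0.72) and the universal stress protein relative AT3G58450 (1.39 and -0.58). They also held 4 proteins of seed desiccation, AT4G21020 (1.22 and -1.53), AT5G66780 (1.46 and -0.82), AT2G23110 (0.96 and -0.69) and AT2G21820 (1.29 and -0.17). AT1G65090 (1.11 and -0.26) and AT1G02700 (1.46 and -0.37), both of unknown function, followed the same order.

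The probe sets without a gene name were 255049_at (1.90 and -1.65), 245070_at (1.31 and -1.48), 255048_at (1.17 and -1.14), 265211_at (1.42 and -0.91) and 247437_at (1.39 and -0.90). The reverse order was seen in 262121_at (-0.69 in the dark and 1.62 in red light).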

How the results depend on the processing

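Of the 109 members, 84 remained with a pseudocount of 16, 103 with quantile normalization (105 met the limits), 101 with median centring and 76 with a rule limit of -3, and 66 had a mean log2 signal of at least 7. The limits were met by 121 with no low-signal limit and by 151 with a rule limit of -2. Leaving out 1 array gave 97 to 115 that met the limits. Median centring moved the median light response of all probe sets by 0.14 in Ler and 0.11 in atbzip16, and the share of higher among light calls from 49.4% to 67.4% and from 50.8% to 65.8%.

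Shares in this paragraph are of all probe sets, called in either direction. The count called for atbzip16 against Ler in the dark was 1 (0.0628%). It was 7 with the pseudocount (0.163%), 2 with quantile normalization (0.0943%) and 2 with no low-signal limit (0.0791%). Without the variance trend it was 0 (0.0189%, with 47 members at an unadjusted p under 0.05 in the model with the trend). With the replicate block it was 30 (1.83%). In red light it was 0 (0.0377%), and it was 8 with the replicate block (0.547%). With quantile normalization it was 1, beside 2 higher and 7 lower over all probe sets. Averaged over both light conditions it was 6 (0.22%), and it was 2 without the variance trend and 30 with the replicate block (2.08%). With the pseudocount the averaged count was 11, beside 32 higher and 18 lower over all probe sets. Leaving out 1 array gave 0 to 8 in the dark, 0 to 7 in red light and 1 to 17 averaged. In the dark the share of all probe sets moved as well, from 0.00628% to 0.245%. Of the 10 dark calls among all probe sets 50% were higher in atbzip16, a share of 66.7% with quantile normalization and 68.7% with the block.

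With the replicate block the dark count of 30 (1.83% of all probe sets in either direction) was 58 with the pseudocount (2.34%). It was 53 without replicate 1, 11 without replicate 2 and 9 without replicate 3. The shares of all probe sets without a replicate number are those given above. The red-light count of 8 was 35, 0 and 0 without these, and the averaged count of 30 was 48, 13 and 8. Leaving out 1 array with the block gave 16 to 41 in the dark, 0 to 24 in red light and 13 to 43 averaged. The share of all probe sets moved under such omissions too. In the dark it was 0.723% without replicate 2 of dark Ler, where 19 members were called. These combinations were chosen after the data were seen. The replicate block left each log2 difference as it was and altered errors and p-values only.

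Some genotype differences of the members described, none of them called in that contrast, changed sign, and the causes were not tested. In red light AT1G54870 was -0.011 with the pseudocount, -0.036 with quantile normalization and -0.030 with median centring. AT1G72100 was -0.24 with the pseudocount and -0.027 with quantile normalization, and AT4G36010 was -0.011 with quantile normalization. The averaged difference of AT4G21020 was 0.043 with the pseudocount. With 1 array left out, red-light values ranged from -2.26 to 0.075 in AT1G54860, -0.32 to 0.48 in AT1G54870, -0.060 to 0.61 in AT3G05260, -1.80 to 0.025 in AT1G16850, -0.64 to 0.31 in LEA, -0.41 to 1.02 in AT3G56350 and -0.0073 to 2.27 in AT1G14940. They ranged from -1.37 to 1.20 in AT1G72100, -0.31 to 0.22 in AT5G01670, -1.49 to 0.091 in AT5G55750, -0.19 to 0.40 in AT4G36010, -0.32 to 1.51 in AT2G42560 and -1.05 to 0.63 in AT3G53040. Averaged values ranged from -0.31 to 0.85 in AT1G54860, -0.46 to 0.45 in AT1G16850, -0.25 to 0.37 in AT3G54940, -0.57 to 0.31 in AT4G21020 and -0.14 to 0.16 in AT4G36010. Dark values ranged from -0.15 to 0.23 in 264147_at and -0.24 to 0.037 in AT4G36010. Weak red-light signals, under 41.6 in both genotypes for 43 members, limit the red-light comparison.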
